A study of Homo sapiens with 6 samples.

Results

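Amino acid transporter genes were taken as every gene on the array whose name belongs to the solute carrier families SLC1, SLC3, SLC6, SLC7, SLC36, SLC38 and SLC43, which gave 59 genes out of 43317 gene names. They were measured by 88 of the 58201 probes, because 20 of the genes had several probes. BT474 is a breast cancer line that carries estrogen receptor and amplified HER2. The cells of 3 groups were compared, with 2 one-color arrays per group: Control cells transfected with empty pcDNA3.1 (labelled MOCK), BT474-Var1 cells carrying variant 1 of the long noncoding RNA NR2F1-AS1, and BT474-Var4 cells carrying its variant 4. All groups, Control included, went through antibiotic selection after transfection and were then kept in the same serum-containing medium without antibiotic.

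Some features of the model bear on every comparison. Per the methods, variant 1 was the long form in a hygromycin plasmid and variant 4 the short form in an eGFP plasmid, an empty version of each served as a control, and which of these the Control arrays carried was not given in the sources used here. The variant cells were colonies that grew back after most of the stably transfected cells had been lost. Nothing says that the replicate arrays came from separate cultures, and the p-values measure only the spread between these samples. All arrays lay on 1 slide, with both BT474-Var1 arrays in a slide column apart from the other 4, so that column and variant 1 cannot be told apart. The share of probes well above background was 47.6% to 57.5% per array, lowest on 1 BT474-Var4 array, and the 10 luminal epithelial markers were above background on all 6 arrays. So were 3 of 5 mesenchymal, 2 of 3 endothelial and 1 of 3 immune markers, while COL1A2 and COL3A1 were on none. VIM was lower in BT474-Var1 (log2 change −1.03), VWF was lower there too (−0.87) and COL1A1 was higher in BT474-Var4 cells (1.03). Luminal markers also changed. PGR was lower in BT474-Var4 (−1.22) and in BT474-Var1 cells (−0.29). ESR1 was lower in BT474-Var4 cells (−0.47), with a change of −0.13 in BT474-Var1 cells. EPCAM was lower (−0.66) and KRT19 higher (0.62) in BT474-Var1 cells. The part of these marker changes in the results was not tested. Of the 4 NR2F1-AS1 probes, A_24_P51080 was above background on both BT474-Var4 arrays, neither BT474-Var1 array and 1 Control array. A_19_P00320140 was above it on the BT474-Var1 arrays only. A_22_P00006111 was above it on both arrays of each variant and 1 Control array, and A_22_P00006112 on both BT474-Var1 arrays and 1 Control array.

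Cells take up amino acids through carriers that differ in substrates and in driving force. Sodium-coupled carriers of the SLC1, SLC6 and SLC38 families concentrate amino acids inside the cell, and exchangers such as SLC7A5 and SLC1A5 then trade one amino acid for another. The SLC7 light chains work only as pairs with a heavy chain, SLC3A2 or SLC3A1, that carries them to the membrane. SLC7A5 supplies leucine and other large neutral amino acids, which activate mTORC1, and SLC7A11 brings in cystine for glutathione synthesis in exchange for glutamate. Several of these genes are known targets of ATF4, the transcription factor of the amino acid response.

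Intensities are given as log2 values relative to the 75th percentile of the same array, so that 0 is that percentile. These values compare the same probe between groups, and they are not levels of one gene against another. A probe entered the test when 1 or more groups had it well above background on each of their arrays. A probe passed when its limma p-value, adjusted over all 31858 tested probes, was under 0.05. Fewer cells of a kind and less RNA per cell cannot be told apart in these bulk samples.

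Of the 59 genes, 36 were well above background on all 6 arrays. A further 8 reached that level on both arrays of some groups only: SLC3A1, SLC7A9, SLC7A10, SLC7A13, SLC7A4, SLC1A2, SLC1A6 and SLC43A3. The 6 genes SLC7A14, SLC38A4, SLC36A2, SLC6A7, SLC6A17 and SLC6A12 were above background on no more than 1 array of any group, and their changes were not tested. The remaining 9 genes were not well above background on any array. Among these were the light chain SLC7A7, the cationic carrier SLC7A3, the SLC38 members SLC38A8 and SLC38A11, the proton-coupled SLC36A3, the neutral amino acid carriers SLC6A15 and SLC6A20, and the GABA carrier SLC6A11. No member spot was saturated or marked as an outlier.

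**Figure D1:**
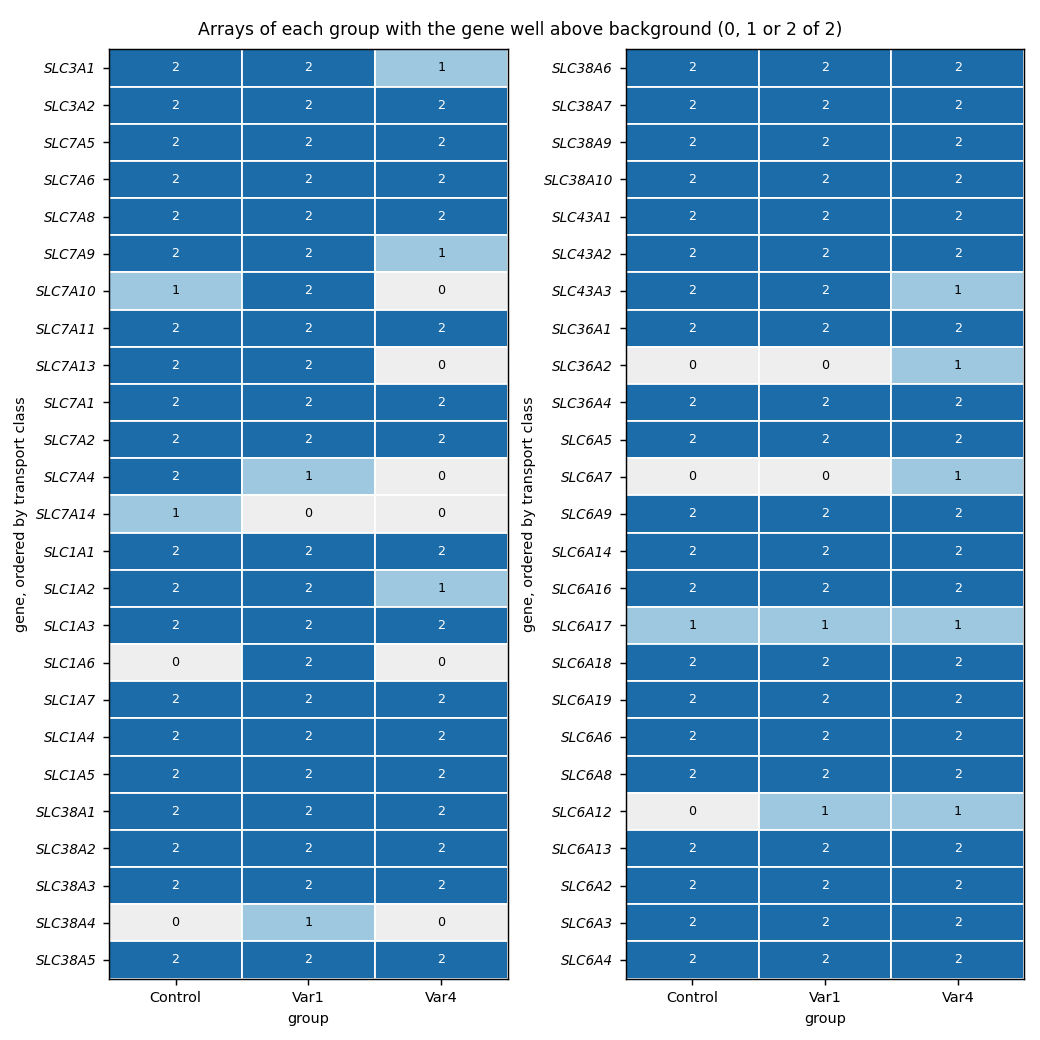
Number of arrays of each group (0, 1 or 2 of 2) on which a gene's best-detected probe was well above background, with the genes that reached this level on 1 or more arrays down the sides, ordered by transport class, and the groups along the bottom. The 36 genes with 2 in every column were measured in all groups, and SLC1A6 was above background in BT474-Var1 cells only.

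The tested members were 59 probes of 44 genes. BT474-Var1 cells differed from Control at 26 member probes, and BT474-Var4 cells at 12. In BT474-Var1 cells 10 member probes were higher than in Control (16.9% of those tested, against 14.1% of all tested probes) and 16 were lower (27.1%, against 20.3%). In BT474-Var4 cells 8 were higher (13.6%, against 9.87%) and 4 were lower (6.78%, against 14.3%). Between the variants the members leaned one way: 22 were higher in BT474-Var4 relative to BT474-Var1 cells (37.3%, against 20.4%) and 11 were lower (18.6%, against 20.8%). The lean was not tested. The median difference between BT474-Var4 and BT474-Var1 cells was 0.12 on the log2 scale over the member probes and −0.035 over all tested probes. Quantile normalization turned the split in BT474-Var4 against Control from 8 higher and 4 lower into 10 higher and 3 lower.

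**Figure D2:**
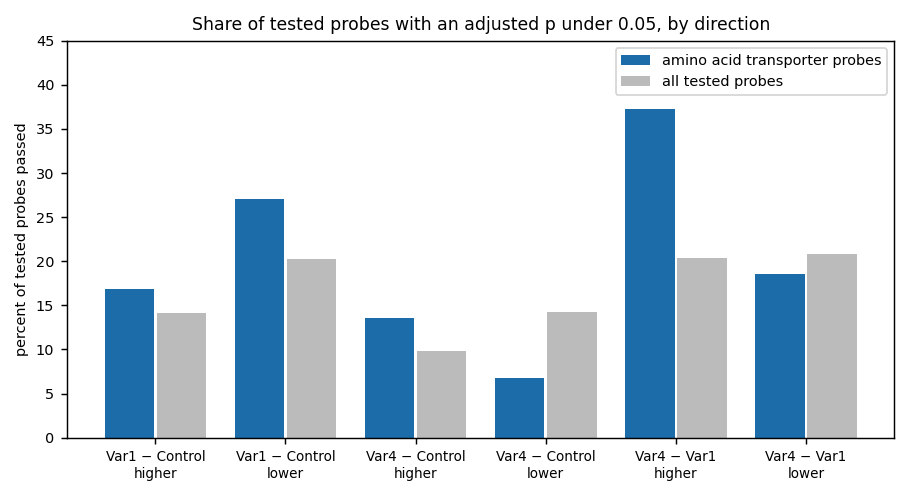
Percent of tested probes that passed, by comparison and direction, for the amino acid transporter probes (blue) and for all tested probes (grey). The widest gap is for probes higher in BT474-Var4 relative to BT474-Var1 cells, 37.3% of the member probes against 20.4% of all.

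A change of 2-fold or more was passed by 5 member probes in BT474-Var1 against Control (8.47%, against 3.94% of all tested probes), those of SLC6A14, SLC7A11, SLC6A6, SLC6A13 and SLC1A6. In BT474-Var4 against Control limma passed 0 members at 2-fold (against 3.17% of all). At an unadjusted p under 0.05 there were 2, SLC1A6 and SLC6A2. SLC1A6 was above background on no array of either group, so that no fold is given, and the SLC6A2 probe A_33_P3394689 was on no Control array. The methods' analysis of variance also passed 0, adjusted or not. Between the variants 6 probes passed at 2-fold (10.2%, against 6.86% of all), those of SLC6A14, SLC7A11, SLC6A6, SLC6A13, SLC7A10 and SLC1A7. The 2-fold call of SLC7A10 rests on BT474-Var4 values not above background, and its bound is at least 1.58-fold. That of SLC1A6 in BT474-Var1 against Control rests on Control values not above background, and its bound is at least 2.73-fold. Leaving out 1 array of a compared group lowered the number passed in BT474-Var1 against Control from 26 to 12 without Control A or B and to 14 without BT474-Var1 A or B. In BT474-Var4 against Control the 12 fell to 3 and 1 without Control A and B and to 4 and 3 without BT474-Var4 A and B. Between the variants the 33 fell to 19 without BT474-Var1 A or B and to 17 and 18 without BT474-Var4 A and B.

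**Figure D3:**
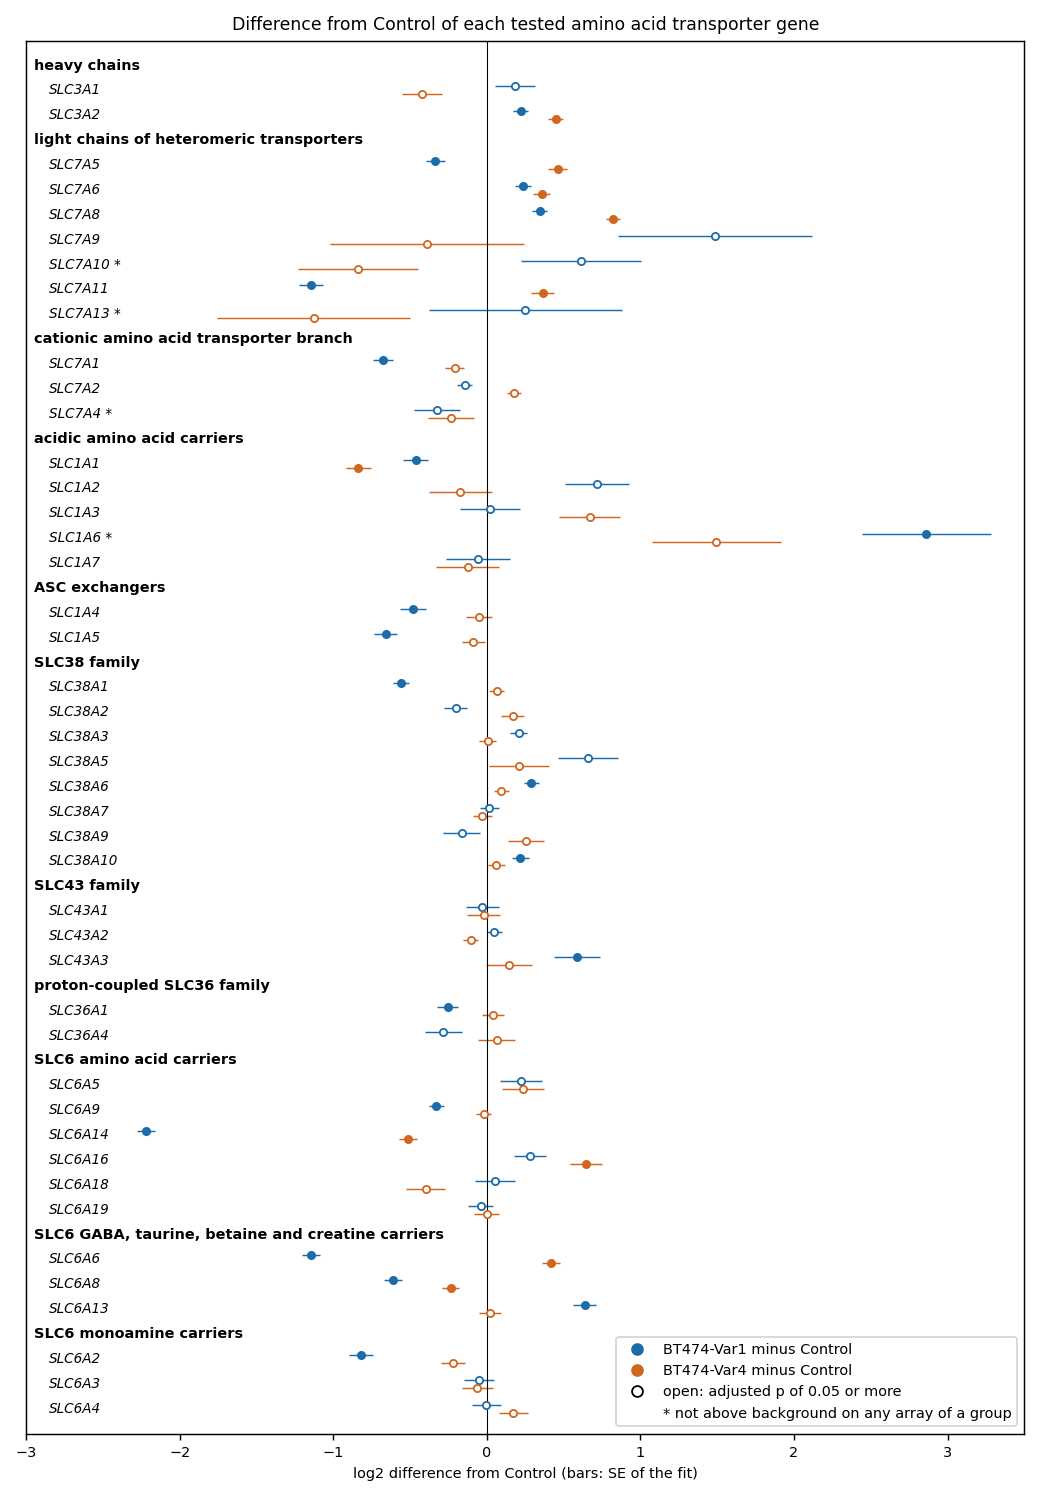
Difference from Control on the log2 scale for the 44 tested genes, 1 probe per gene (the one with the highest mean), grouped by transport class. Blue is BT474-Var1 and orange BT474-Var4, bars are the SE of the fit, filled points passed and open points did not, and an asterisk marks genes not above background on any array of a group. SLC6A14 lies farthest left, at −2.22 in BT474-Var1 cells, and SLC7A5, SLC7A11 and SLC6A6 have filled points on both sides of 0.

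The heavy chain SLC3A2, the shared partner of the SLC7A5 and SLC7A11 light chains, was higher in both variants. Its values were 3.65 and 3.63 in Control, 3.88 and 3.85 in BT474-Var1, and 4.08 and 4.10 in BT474-Var4 cells. The groups did not overlap, and Control was lowest. SLC3A2 rose 1.17-fold in BT474-Var1 cells (log2 change 0.22, SE 0.049, adjusted p = 0.0297) and 1.36-fold in BT474-Var4 cells (adjusted p = 0.00901). The first of these was lost in 9 of 15 alternative settings and the second without Control A or B or the filter on dim probes. The heavy chain SLC3A1, which carries the cystine and basic amino acid transporter of kidney and gut, was dim, and above background on 1 of 2 BT474-Var4 arrays. It did not pass against Control and was 1.52-fold lower in BT474-Var4 relative to BT474-Var1 cells (adjusted p = 0.0227).

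The SLC7A5 light chain, the large neutral amino acid exchanger known as LAT1, moved in opposite directions. It stood at 4.09 and 4.11 in Control, at 3.70 and 3.83 in BT474-Var1, and at 4.56 and 4.57 in BT474-Var4 cells. All BT474-Var1 values lay below Control and all BT474-Var4 values above it. SLC7A5 fell 1.26-fold in BT474-Var1 (log2 change −0.34, SE 0.062, adjusted p = 0.0186) and rose 1.38-fold in BT474-Var4 cells (0.46, adjusted p = 0.0135). The variants differed 1.74-fold (adjusted p = 0.00243), under every alternative tried. The fall did not pass after quantile normalization, with no filter on dim probes, or without Control A, Control B or BT474-Var1 A. The rise did not pass with no such filter or without any 1 of the Control or BT474-Var4 arrays.

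SLC7A11, the cystine and glutamate exchanger, had the largest change of the light chains that passed. Its values were −0.046 and −0.073 in Control, −1.13 and −1.28 in BT474-Var1, and 0.26 and 0.35 in BT474-Var4 cells. The order was the one seen for SLC7A5, with no overlap between groups. SLC7A11 fell 2.21-fold in BT474-Var1 (log2 change −1.15, SE 0.076, adjusted p = 0.00351) and rose 1.29-fold in BT474-Var4 cells (adjusted p = 0.0347), and the variants differed 2.85-fold (adjusted p = 0.00132). The rise was lost in 7 of 15 alternative settings: the analysis of variance, the replicate block, no filter on dim probes, and without any 1 of the Control or BT474-Var4 arrays. The other differences passed under every alternative.

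SLC7A8, a second large neutral amino acid exchanger known as LAT2, was higher in both variants by its brighter probe A_23_P205489. This probe read 2.03 and 2.02 in Control, 2.35 and 2.38 in BT474-Var1, and 2.85 and 2.85 in BT474-Var4 cells. The 3 groups were separate, with replicates close together. It rose 1.27-fold in BT474-Var1 (adjusted p = 0.00997) and 1.77-fold in BT474-Var4 cells (log2 change 0.82, SE 0.048, adjusted p = 0.00335). This rise in BT474-Var4 cells was the only one of the 12 member calls in that comparison to pass under every alternative setting tried, replicate omissions included. SLC7A6, the light chain that exchanges basic for neutral amino acids, was dim and passed in both variants, 1.18-fold higher in BT474-Var1 (adjusted p = 0.0309) and 1.28-fold in BT474-Var4 cells (adjusted p = 0.0164). The SLC7A6 rise was lost in 12 of 15 alternative settings in BT474-Var1 and in 7 of 15 in BT474-Var4 cells. Under normexp background correction neither change passed. The SLC7A6 probe lies beside that of SLC7A6OS, a gene on the other strand.

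The other tested light chains were near background. SLC7A10, which exchanges alanine, serine and cysteine, read −3.28 and −3.14 in BT474-Var1 and −4.13 and −5.19 in BT474-Var4 cells, where no array was above background, against −4.06 and −3.58 in Control with 1 array above it. BT474-Var1 cells were at least 1.58-fold higher than BT474-Var4 cells (adjusted p = 0.0424), a bound set by the dimmest well-measured spot of each array. The p rests on values not above background, and the call was lost in 10 of 14 alternative settings. Replicates of SLC7A9, the cystine partner of SLC3A1, lay far apart in BT474-Var1 cells (−0.63 and −2.41), and neither it nor SLC7A13 passed in any comparison.

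**Figure D4:**
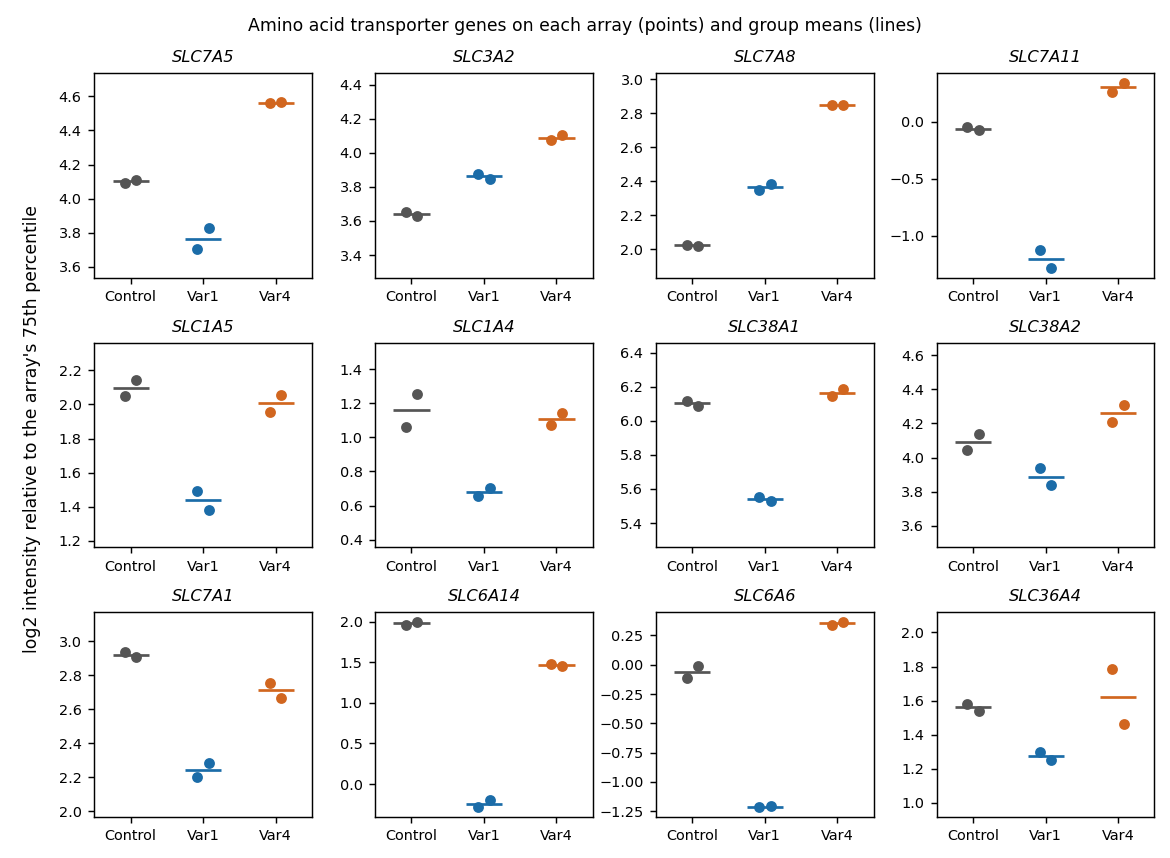
Log2 intensity relative to the array's 75th percentile on each array (points) with the group mean (line) for 12 amino acid transporter genes, each panel on its own axis. Control is grey, BT474-Var1 blue and BT474-Var4 orange, and SLC7A5, SLC7A11 and SLC6A6 show BT474-Var1 below and BT474-Var4 above Control.

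SLC1A5, SLC1A4 and SLC38A1, carriers of glutamine or of alanine, serine and cysteine, were lower in BT474-Var1 cells and did not pass in BT474-Var4 cells. SLC1A5, the glutamine exchanger known as ASCT2, read 2.05 and 2.15 in Control, 1.49 and 1.38 in BT474-Var1, and 1.96 and 2.06 in BT474-Var4 cells. Control and BT474-Var4 values overlapped and both BT474-Var1 values lay below them. SLC1A5 fell 1.58-fold in BT474-Var1 cells (log2 change −0.66, SE 0.075, adjusted p = 0.00677), and in BT474-Var4 cells the change was −0.089 (adjusted p = 0.43). SLC1A4, its relative ASCT1, fell 1.39-fold in BT474-Var1 cells (adjusted p = 0.0169), with a change of −0.053 in BT474-Var4 cells (adjusted p = 0.681). Both were higher in BT474-Var4 relative to BT474-Var1 cells, by 1.49-fold and 1.34-fold (adjusted p = 0.00719 and 0.019).

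SLC38A1, a sodium-coupled glutamine carrier, read 6.12 and 6.09 in Control, 5.55 and 5.53 in BT474-Var1, and 6.15 and 6.18 in BT474-Var4 cells. The BT474-Var1 values stood apart below the other 4. It fell 1.47-fold in BT474-Var1 cells (log2 change −0.56, SE 0.050, adjusted p = 0.00477), the change in BT474-Var4 cells was 0.062 (adjusted p = 0.403), and the variants differed 1.54-fold (adjusted p = 0.00254). Its second probe gave 1.40-fold for the fall and 1.46-fold for the difference between the variants (adjusted p = 0.00922 and 0.00552).

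SLC38A2, the glutamine carrier that cells raise when amino acids run short, gave different answers by its probes. A_24_P295963, the brighter, read 4.04 and 4.14 in Control, 3.94 and 3.84 in BT474-Var1, and 4.21 and 4.31 in BT474-Var4 cells, with the groups in separate ranges. Against Control its log2 change was −0.20 in BT474-Var1 cells and BT474-Var4 cells had 0.17, neither of which passed (adjusted p = 0.1 and 0.169), and it was 1.29-fold higher in BT474-Var4 relative to BT474-Var1 cells (adjusted p = 0.0196). A_23_P218079 read 2.67 and 2.49 in Control, 3.12 and 3.09 in BT474-Var1, and 2.95 and 2.81 in BT474-Var4 cells. By that probe SLC38A2 was 1.44-fold above Control in BT474-Var1 cells (log2 change 0.52, adjusted p = 0.0157), the opposite sign.

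Few of the other SLC38 genes passed against Control. SLC38A10, a broadly expressed member, read 3.79 and 3.73 in Control, 3.97 and 3.99 in BT474-Var1, and 3.85 and 3.79 in BT474-Var4 cells by its brighter probe. Control and BT474-Var4 values met at 3.79 and BT474-Var1 lay above both, 1.16-fold over Control (adjusted p = 0.0399). That rise was lost in 9 of 15 alternative settings, and the dimmer tested probe of SLC38A10 fell in BT474-Var1 cells (log2 change −0.76). SLC38A6 rose 1.22-fold in BT474-Var1 cells (adjusted p = 0.015) by 1 of its 3 tested probes, and the other 2 did not pass. SLC38A9, the lysosomal arginine sensor upstream of mTORC1, did not pass against Control and was 1.34-fold higher in BT474-Var4 relative to BT474-Var1 cells (adjusted p = 0.0481), lost in 9 of 15 alternative settings. The glutamine carriers SLC38A3 and SLC38A5 and the lysosomal SLC38A7 did not pass against Control, and SLC38A5 had a log2 change of 0.66 in BT474-Var1 cells (adjusted p = 0.0634). The brightest of 3 SLC38A3 probes was 1.15-fold lower in BT474-Var4 relative to BT474-Var1 cells (adjusted p = 0.0478), a call lost in 9 of 15 alternative settings, and the other 2 had differences of 0.40 and 1.0 with the opposite sign that did not pass.

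Of the cationic amino acid carriers, SLC7A1, the main arginine and lysine uptake carrier of dividing cells, was lower in BT474-Var1 cells. It read 2.94 and 2.91 in Control, 2.20 and 2.29 in BT474-Var1, and 2.76 and 2.66 in BT474-Var4 cells, with BT474-Var1 lowest and no overlap. SLC7A1 fell 1.60-fold (log2 change −0.68, SE 0.063, adjusted p = 0.00505). In BT474-Var4 cells the change was −0.21 (adjusted p = 0.0757), and the variants differed 1.38-fold (adjusted p = 0.00746). SLC7A2, an arginine carrier, read 4.36 and 4.37 in Control, 4.23 and 4.21 in BT474-Var1, and 4.53 and 4.55 in BT474-Var4 cells. The groups were separate but the steps small, neither variant passed against Control, and BT474-Var4 was 1.25-fold higher than BT474-Var1 (adjusted p = 0.00901). SLC7A4, dim and above background on both arrays of Control only, did not pass.

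Among the SLC1 carriers of glutamate and aspartate, SLC1A1, known as EAAT3, was lower in both variants. It read 1.40 and 1.39 in Control, 0.94 and 0.93 in BT474-Var1, and 0.46 and 0.67 in BT474-Var4 cells. Here BT474-Var4 was lowest, unlike the glutamine carriers. SLC1A1 fell 1.38-fold in BT474-Var1 (adjusted p = 0.0179) and 1.79-fold in BT474-Var4 cells (log2 change −0.84, SE 0.084, adjusted p = 0.00757), and the step between the variants passed too (adjusted p = 0.0268). Both falls were lost without Control A or B or the filter on dim probes. The BT474-Var1 fall was also lost without BT474-Var1 A or B, and the step between the variants in 8 of 15 alternative settings.

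The other glutamate carriers, best known from neurons and glia, were dim. SLC1A6 read −5.20 and −6.38 in Control and −4.24 and −4.36 in BT474-Var4 cells, where no array was above background. In BT474-Var1 cells it read −3.14 and −2.72, with both arrays above background. The probe entered the test through BT474-Var1 cells alone, and its p against Control rests on Control values not above background. BT474-Var1 cells were at least 2.73-fold higher than Control (adjusted p = 0.0111), and without BT474-Var1 B or the filter on dim probes the difference did not pass. SLC1A7 had 2 tested probes, of which A_24_P203765 read −3.60 and −2.88 in Control, −2.83 and −2.57 in BT474-Var1, and −3.69 and −3.73 in BT474-Var4 cells, with 1 BT474-Var4 array not above background. This probe was 2.01-fold lower in BT474-Var4 relative to BT474-Var1 cells (adjusted p = 0.0362), while the brighter probe had a difference of −0.067 (adjusted p = 0.813). SLC1A2 was 1.86-fold lower in BT474-Var4 relative to BT474-Var1 cells (adjusted p = 0.0292), with 1 BT474-Var4 array not above background. This call and that of SLC1A7 A_24_P203765 were each lost in 7 of 14 alternative settings. SLC1A3 did not pass in any comparison.

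The SLC43 carriers, which move large neutral amino acids without sodium, and the proton-coupled SLC36 carriers had few differences that passed. SLC43A1, known as LAT3, read −1.36 and −1.37 in Control, −1.31 and −1.48 in BT474-Var1, and −1.5 and −1.27 in BT474-Var4 cells. The groups overlapped, and the changes of −0.032 (SE 0.11) and −0.021 did not pass (adjusted p = 0.842 and 0.906). SLC43A2, known as LAT4, did not pass either. SLC43A3, a purine base carrier despite its family name, was dim and 1.5-fold above Control in BT474-Var1 cells (adjusted p = 0.0429). That call was lost in 12 of 14 alternative settings.

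SLC36A4, a tryptophan and proline carrier, had 2 probes that moved alike. The brighter read 1.58 and 1.54 in Control, 1.30 and 1.25 in BT474-Var1, and 1.78 and 1.46 in BT474-Var4 cells, and did not pass (log2 change −0.28, adjusted p = 0.135, in BT474-Var1). The other read 1.07 and 1.14, 0.80 and 0.68, and 1.05 and 1.16 in the same order, and fell 1.29-fold in BT474-Var1 cells (adjusted p = 0.0248). That fall was lost in 7 of 15 alternative settings. SLC36A1, a lysosomal carrier of small neutral amino acids, fell 1.19-fold in BT474-Var1 cells (adjusted p = 0.0483), lost in 11 of 15 alternative settings. Both SLC36 genes were higher in BT474-Var4 relative to BT474-Var1 cells, at an adjusted p of 0.0208 for the second SLC36A4 probe and 0.0293 for SLC36A1.

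SLC6A14, a sodium- and chloride-coupled carrier of nearly all neutral and cationic amino acids that is known to respond to estrogen in breast cells, had the largest fall of all members. It read 1.96 and 2.0 in Control, −0.29 and −0.19 in BT474-Var1, and 1.48 and 1.45 in BT474-Var4 cells. Both variants lay below Control and BT474-Var1 far below BT474-Var4. SLC6A14 fell 4.66-fold in BT474-Var1 (log2 change −2.22, SE 0.058, adjusted p = 0.0018) and 1.43-fold in BT474-Var4 cells (adjusted p = 0.00975), and the variants differed 3.27-fold (adjusted p = 0.0012).

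The glycine carrier SLC6A9 fell 1.26-fold in BT474-Var1 cells by its brighter probe (adjusted p = 0.0128), and its dim probe gave a similar change of −0.30 that did not pass. SLC6A16, a member with no known substrate, was 1.56-fold higher in BT474-Var4 cells (adjusted p = 0.0188), a call lost in 6 of 15 alternative settings. SLC6A5, the neuronal glycine carrier, and the kidney and gut carriers SLC6A18 and SLC6A19 were dim and did not pass against Control. SLC6A18 was 1.37-fold lower in BT474-Var4 relative to BT474-Var1 cells (adjusted p = 0.0484), which was lost in 12 of 15 alternative settings.

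The SLC6 family also holds carriers of related compounds. SLC6A6, the taurine carrier, read −0.11 and −0.012 in Control, −1.22 and −1.20 in BT474-Var1, and 0.34 and 0.37 in BT474-Var4 cells by its probe A_24_P46093. The groups were far apart, in the order seen for SLC7A5 and SLC7A11. By that probe SLC6A6 fell 2.22-fold in BT474-Var1 (log2 change −1.15, SE 0.058, adjusted p = 0.00292) and rose 1.34-fold in BT474-Var4 cells (adjusted p = 0.0145), and the variants differed 2.96-fold (adjusted p = 0.0012). The rise did not pass with no filter on dim probes or without any 1 of the Control or BT474-Var4 arrays. The second SLC6A6 probe, A_24_P359191, read −0.60 and −0.56, −0.62 and −0.63, and −0.57 and −0.67 in the same order and showed overlapping groups, with changes of −0.042 and −0.040 (adjusted p = 0.621 and 0.655).

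SLC6A13, a GABA and taurine carrier, was higher in BT474-Var1 cells by both probes. A_23_P64980 read −3.50 and −3.59 in Control, −1.98 and −2.74 in BT474-Var1, and −3.67 and −3.75 in BT474-Var4 cells, where 1 array was above background. It was 2.27-fold above Control in BT474-Var1 cells (adjusted p = 0.029), a call lost in 8 of 14 alternative settings, and 2.55-fold lower in BT474-Var4 relative to BT474-Var1 cells (adjusted p = 0.0177). The brighter A_21_P0000624, which the array's annotation ties to a different transcript variant, was 1.56-fold above Control in BT474-Var1 cells (adjusted p = 0.00703) under every alternative tried.

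SLC6A8, the creatine carrier, passed in the same direction in both variants by A_33_P3325262, 1.53-fold lower in BT474-Var1 (adjusted p = 0.00518) and 1.18-fold lower in BT474-Var4 cells (adjusted p = 0.0485), the latter lost in 11 of 15 alternative settings. The accessions listed for this probe also name SLC6A10P, a near copy of SLC6A8, so its value may hold both. It was the 1 member probe of 84 with a matched RefSeq accession that named a second gene. The other SLC6A8 probe was 1.26-fold lower in BT474-Var4 cells (adjusted p = 0.0284), with a change of −0.019 in BT474-Var1 cells (adjusted p = 0.842). Its fall in BT474-Var4 cells was lost in 7 of 15 alternative settings. Between the variants both SLC6A8 probes passed, with opposite signs. A_33_P3325262 was higher in BT474-Var4 by 0.38 on the log2 scale, and the other probe was lower by 0.32 (adjusted p = 0.0101 and 0.0204). SLC6A8 therefore counts among both the higher and the lower members of that comparison. The 2 probes of SLC6A10P itself were 1.39-fold and 1.49-fold lower in BT474-Var1 cells (adjusted p = 0.0151 and 0.00602).

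Of the monoamine carriers, which share the SLC6 fold but not the substrates, SLC6A2 for noradrenaline fell 1.76-fold in BT474-Var1 cells (adjusted p = 0.00522) by its brighter probe. Its second probe was above background in BT474-Var4 cells only and did not pass (adjusted p = 0.0708 against Control). The dopamine carrier SLC6A3 and the serotonin carrier SLC6A4 did not pass in any comparison.

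The probes of SLC38A2 and of SLC38A10 had changes of opposite sign in BT474-Var1 cells, and their sequences are shown to identify what each one measures. The first 30 of the 60 bases are given as the array file lists them, with coordinates of the whole probe in hg19. An annotation of that build was not used here, so exon and UTR are not stated.

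SLC38A2 A_23_P218079, chr12:46754625-46754684, minus strand: acaaaaccacgagtctcgggttaagggaag
SLC38A2 A_24_P295963, chr12:46752710-46752769, minus strand: aggttcaaaatcaagtgcctagggaaaatt
SLC38A10 A_23_P379630, chr17:79225065-79225124, minus strand: tcagcagcttgctttctgggaaccttttat
SLC38A10 A_23_P55011, chr17:79218836-79218895, minus strand: cttgcagtgactcagaatgataattattat

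The SLC38A2 probe that was higher in BT474-Var1 cells lies upstream of the other on the minus strand. For SLC38A10 the array's annotation ties A_23_P379630 to transcript variant 2 and A_23_P55011 to variant 1. A_23_P379630 was 1.70-fold lower in BT474-Var1 cells (log2 change −0.76, adjusted p = 0.0122) where A_23_P55011 was 1.16-fold higher. For SLC7A8 the dim probe A_33_P3310301 had a change of −0.017 in BT474-Var1 (adjusted p = 0.91) and was 1.37-fold higher in BT474-Var4 cells (adjusted p = 0.0406), lost in 11 of 15 alternative settings.

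**Figure D5:**
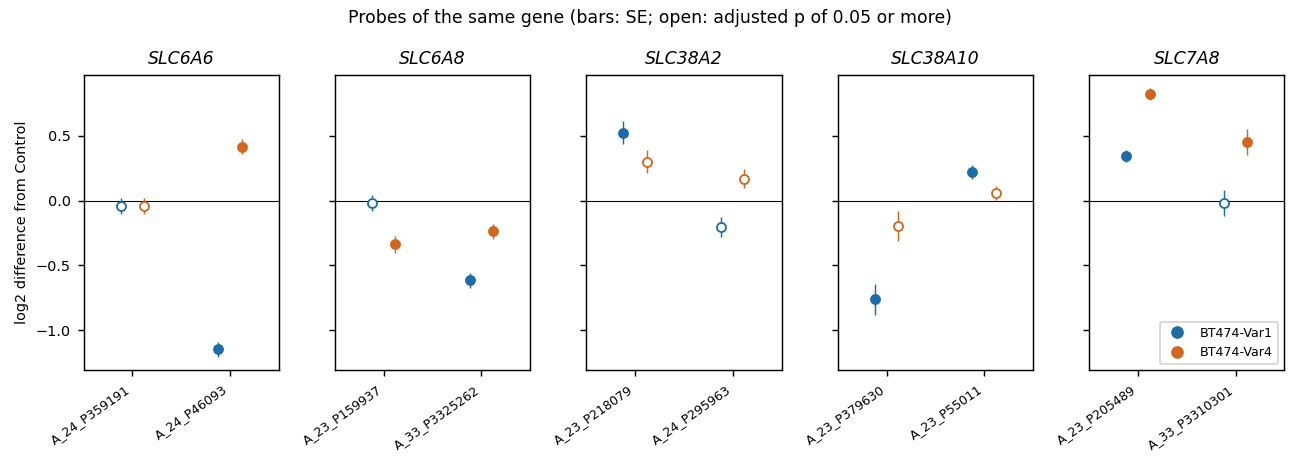
Difference from Control on the log2 scale for each tested probe of SLC6A6, SLC6A8, SLC38A2, SLC38A10 and SLC7A8, with BT474-Var1 in blue, BT474-Var4 in orange, bars for the SE of the fit and open points for changes that did not pass. The SLC6A6 probes differ most, with −1.15 against −0.042 in BT474-Var1 cells.

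Promoter sequence was searched because several members moved together between the variants. RefSeq promoters of build GRCh38.p14, 250 bases before to 50 after a start, were matched for 44 of the 59 genes, with 66 starts among them. The letters TGATGNAA, the core of the element bound by ATF4 with C/EBP partners, were looked for on both strands. They were found at 6 of the 66 member starts (9.1%), against 3.6% of all 35116 starts. The 6 genes were SLC1A4, SLC1A5, SLC38A1, SLC7A1, SLC3A2 and SLC1A3, each at 1 start. SLC7A1 has a single start in the table, and the other 5 have 1 or 2 more starts without the letters. A stretch of 30 bases around each match is shown in the direction of transcription, with the match on either strand in capitals.

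SLC1A4, chr2:64989381-64989410, plus strand: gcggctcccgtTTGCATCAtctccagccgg
SLC1A5, chr19:46784893-46784922, minus strand: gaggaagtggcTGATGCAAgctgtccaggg
SLC38A1, chr12:46266502-46266531, minus strand: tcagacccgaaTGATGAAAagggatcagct
SLC7A1, chr13:29595663-29595692, minus strand: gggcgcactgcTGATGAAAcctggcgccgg
SLC3A2, chr11:62881719-62881748, plus strand: gtaatgtgcaggactccTTACATCAgctcc
SLC1A3, chr5:36596357-36596386, plus strand: caggaaatgacTGATGCAAagcagggttaa

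Of these, SLC1A4, SLC1A5, SLC38A1 and SLC7A1 were lower in BT474-Var1 cells than in Control and higher in BT474-Var4 relative to BT474-Var1 cells. SLC3A2 was higher in both variants and SLC1A3 did not pass. SLC3A2 and SLC7A1 hold the letters just after the start, and the others begin before it. A match in this window is a description of the letters and not a bound site, and the share among members was not tested. Most members that moved lacked the letters. Counted by gene over all of its starts, 13.6% of the 44 matched member genes and 18.2% of the 33 tested ones held the letters. Among all 27305 genes the share was 4.5%. With a matched promoter, 4 of the 12 genes lower in BT474-Var1 than in Control held them. So did 5 of the 16 genes higher in BT474-Var4 relative to BT474-Var1 cells. ATF4 itself passed in no comparison. Its log2 changes against Control were −0.060 for BT474-Var1 and 0.072 for BT474-Var4 (adjusted p = 0.454 and 0.398). These arrays measure mRNA and not ATF4 protein, and a role of ATF4 was not tested.

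The promoters of the members with the largest fall and with opposite changes are shown for comparison, SLC6A14 and SLC7A5, as the 250 bases before the start. Capitals mark the letters ACGTG or GCGTG on either strand, both cores of hypoxia response elements. ACGTG is also part of the E-box CACGTG, where it matches on both strands at once.

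SLC6A14, chrX:116436356-116436605, plus strand: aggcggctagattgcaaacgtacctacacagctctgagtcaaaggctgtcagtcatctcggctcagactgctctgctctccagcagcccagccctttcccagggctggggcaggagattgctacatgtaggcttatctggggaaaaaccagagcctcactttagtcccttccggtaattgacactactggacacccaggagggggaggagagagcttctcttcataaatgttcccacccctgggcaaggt
SLC7A5, chr16:87869508-87869757, minus strand: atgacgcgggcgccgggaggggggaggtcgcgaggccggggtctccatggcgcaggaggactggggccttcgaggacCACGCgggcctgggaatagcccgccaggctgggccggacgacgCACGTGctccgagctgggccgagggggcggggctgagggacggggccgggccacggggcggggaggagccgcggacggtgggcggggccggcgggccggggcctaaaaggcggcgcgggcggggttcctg

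The SLC7A5 stretch holds CACGTG once and GCGTG once on the reverse strand, and the SLC6A14 stretch holds neither. ACGTG occurred at 28.8% of member starts and 21.4% of all starts, and GCGTG at 51.5% and 36.5%. The letters TGACNNNGC, the core of the antioxidant response element, occurred at 10.6% and 13.3%. The full palindromic estrogen response element occurred at 0 of the 66 member starts and 0.1% of all. SLC7A11 and SLC6A6 had no entry in the table.

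Genes around the carriers were counted with 1 probe per gene, the tested probe with the highest mean, out of 24619 gene names of which 14.2% were higher and 20.7% lower in BT474-Var1 than in Control, 10.2% higher and 14.6% lower in BT474-Var4 than in Control, and 20.9% higher and 21% lower in BT474-Var4 relative to BT474-Var1 cells. Of the 44 tested members counted this way, 8 rose and 13 fell in BT474-Var1, 7 rose and 3 fell in BT474-Var4, and 18 were higher and 8 lower in BT474-Var4 relative to BT474-Var1 cells. Their median differences were −0.017, 0.012 and 0.11 on the log2 scale, beside −0.046, −0.077 and −0.031 over all gene names.

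Aminoacyl-tRNA synthetases, which charge tRNAs with the imported amino acids, leaned toward BT474-Var4 cells as the carriers did. All 20 were tested, and 12 were higher in BT474-Var4 relative to BT474-Var1 cells, led by GARS (log2 difference 0.90), WARS (0.72) and YARS (0.55), which were picked after their values were seen. limma passed 0 as lower there, with 1 at an unadjusted p under 0.05, DARS, and the analysis of variance gave the same 0 and 1. Against Control, 5 fell and 1 rose in BT474-Var1 cells, and 2 rose in BT474-Var4 cells, where limma passed 0 as lower (2 at an unadjusted p under 0.05 by limma and by the analysis of variance). A dimmer IARS probe outside this count was lower in BT474-Var4 cells by limma (log2 change −0.35, adjusted p = 0.0438). The list's median difference between the variants was 0.31. None of its changes reached 2-fold.

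Of 25 tested genes of the integrated stress response and ATF4 targets, 11 fell and 6 rose in BT474-Var1 cells. Those that fell included the pseudokinase TRIB3 and the serine and folate enzymes PHGDH, PSAT1, SHMT2 and MTHFD2, named after their values were seen. Those that rose included the mTORC1 inhibitor DDIT4 (log2 change 1.70, adjusted p = 0.002), the lipoprotein receptor VLDLR (1.45) and the transcription factor ATF3 (1.31). In BT474-Var4 cells 6 rose and 4 fell, with the phosphatase subunit PPP1R15A (1.09, adjusted p = 0.0042) and the cytokine GDF15 (1.03) at 2-fold or more. Both also rose in BT474-Var1 cells, PPP1R15A by 0.72 (adjusted p = 0.0059) and GDF15 by 1.17 (adjusted p = 0.0025). GDF15 did not pass between the variants (−0.14, adjusted p = 0.086). Between the variants 12 were higher in BT474-Var4 and 5 in BT474-Var1 cells, the latter with VLDLR (−1.39) and DDIT4 (−1.24), and SESN2 (1.05) was among the former.

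Amino acid sensing upstream of mTORC1 split in each comparison. Of 32 tested genes, 5 rose and 8 fell in BT474-Var1, 5 rose and 7 fell in BT474-Var4, and 8 were higher and 6 lower in BT474-Var4 relative to BT474-Var1 cells. The Rag GTPase RRAGD rose in BT474-Var1 cells (log2 change 1.89, adjusted p = 0.0052), and the leucine sensor SESN2 was higher in BT474-Var4 relative to BT474-Var1 cells (1.05, adjusted p = 0.0027). The folliculin gene FLCN was lower in that comparison (−1.15, adjusted p = 0.0013).

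Enzymes of glutamine, glutamate, proline and aspartate metabolism fell more often than they rose in BT474-Var1 cells, 9 against 1 of 19 tested, with ornithine aminotransferase OAT at a log2 change of −1.0 (adjusted p = 0.0029). In BT474-Var4 cells 1 rose and 4 fell, OAT among the latter (−0.92, adjusted p = 0.0033). Of 16 tested enzymes of branched-chain, serine and cysteine metabolism, 3 rose and 6 fell in BT474-Var1 and 1 rose and 4 fell in BT474-Var4 cells, and the glycine cleavage gene AMT was lower in BT474-Var4 relative to BT474-Var1 cells (−1.23, adjusted p = 0.0013). Of 17 other amino acid and peptide carriers, mostly of mitochondria, 3 fell in BT474-Var1 cells, while BT474-Var4 cells had 1 that fell. Of 6 accessory proteins, TMEM27, the partner of SLC6A19, rose in BT474-Var1 cells (1.33, adjusted p = 0.0031) and less so in BT474-Var4 cells (0.91, adjusted p = 0.0059), a difference that passed (−0.42, adjusted p = 0.017).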

How the data were processed

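RNA of Control, BT474-Var1 and BT474-Var4 cells, 2 arrays each, was labeled with Cy3 for one-color Agilent arrays. The authors quantified spots with Feature Extraction 11.5.1.1 (named in the submitters' processing notes), and the deposited files hold background-subtracted intensities per spot with flags for dim and outlier spots, and a table of log2 values shifted to each array's 75th percentile. Probe positions in the headers are hg19, and the design named there is not the one in the methods. Precision is limited by having 2 arrays a group.

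Here log2 intensities had the 75th percentile of their array subtracted, outlier spots were left out and spots of a probe averaged. Group means over the 6 arrays were fitted with limma 3.58.1 (R 4.3.3). Benjamini-Hochberg adjustment ran over the 31858 probes that 1 or more groups had well above background on each array. The fit had 3 residual degrees of freedom. Where no array of a group was above background, a fold is given as a bound against the dimmest well-measured spot of each array. The deposited table differed from these values by a median of at most 0.00716 per array. The script was tested on simulated data. The members and lists were chosen with earlier results of these data known. Values on every array are given for members with a 2-fold change, for the 6 brightest and for a set with known roles, and up to 3 genes with a 2-fold change are named per other list. Alternatives were quantile normalization, normexp (offset 50), no filter on dim probes, the deposited table, a filter requiring all 6 arrays, a replicate block, a trend with robust estimation, the methods' one-way analysis of variance, a fit to the compared groups only, the mean over a gene's probes, another detection flag, and each array left out. Some items are not reported here.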

Additional observations from a re-analysis of the deposited data

Results flagged for a closer look

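Changes against Control that passed in opposite directions in the 2 variants, with a difference between the variants that also passed, were found for SLC7A5 (log2 difference of BT474-Var4 from BT474-Var1 cells 0.80, adjusted p = 0.00243), SLC7A11 (1.51, adjusted p = 0.00132) and the SLC6A6 probe A_24_P46093 (1.57, adjusted p = 0.0012). Groups of 2 arrays were too small for a test of single outlying arrays.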

How the results depend on the processing

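With 2 arrays per group, 15 alternative settings were run for most member probes, and none turned the direction of a change that had passed. The settings were not all distinct. Leaving out either array of the group outside a comparison gave the same counts as the fit to the compared groups only. The numbers of settings in which a call was lost therefore count that fit repeatedly. Of the 26 calls in BT474-Var1 against Control, 9 passed under every setting (SLC6A14, SLC7A11, SLC7A1, SLC1A5, SLC6A2 and single probes of SLC38A1, SLC6A6, SLC6A8 and SLC6A13), as did 1 of 12 in BT474-Var4 against Control (SLC7A8) and 10 of 33 between the variants. Without a filter on dim probes, 9, 1 and 11 passed for BT474-Var1 and for BT474-Var4 against Control and between the variants, in place of 26, 12 and 33. All 58201 probes then enter the adjustment. The one-way analysis of variance gave 21 between the variants. Leaving out each array in turn gave 12 to 22, 1 to 11 and 17 to 27. With the replicate block, 21, 9 and 27 passed. The deviations of same-lettered arrays correlated at −0.0124, 0.0452 and −0.0154, so no shared shift of these arrays was seen. Whether the letters mark a pairing is not given by the labels. The detection flag gIsPosAndSignif raised the genes detected on both arrays of a group from 44 to 52. Signal close to background limits the genes above it in some groups only.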

Other observations

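Transcripts named after the members but outside their rule were also measured. SLC7A6OS, whose probe lies next to that of SLC7A6 on the opposite strand, was 1.71-fold above Control in BT474-Var4 cells (adjusted p = 0.0201), with a log2 change of 0.020 in BT474-Var1 cells (adjusted p = 0.917). SLC7A5P1, a pseudogene copy of SLC7A5, was 1.25-fold lower in BT474-Var1 cells (adjusted p = 0.0211) and did not pass in BT474-Var4 cells, with a log2 change of −0.13 (adjusted p = 0.18). Its probe shares no run over 6 bases with that of SLC7A5. The probes were compared only with each other, so whether either one also detects the other transcript was not tested. The 2 SLC6A10P probes differed from each other in BT474-Var4 cells, where one was 1.29-fold higher than Control (adjusted p = 0.0203) and the other had a change of −0.21 (adjusted p = 0.121). The 4 probes of SLC7A11-AS1 were not above background on any array.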
